A study of Drosophila melanogaster with 33 samples.

Results

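The genes described are 8 that act in the choice and differentiation of the R8 founder photoreceptor of the fly eye: ato, da, emc, sca, sens, boss, nerfin-1 and scrt. They were taken by symbol, and all 8 were found among the 16727 genes of the count tables. In the developing eye of Drosophila melanogaster, a front of differentiation called the morphogenetic furrow crosses the disc, and a single R8 cell is picked from each cluster of competent cells behind it. Atonal (Ato) is the proneural transcription factor that makes cells competent to become R8, Notch signalling narrows its expression to single cells, and the R8 cell then recruits the other photoreceptors. R8 cells therefore come first in the order of photoreceptor birth, and their genes are used as read-outs of furrow progression.

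Messenger RNA was measured by 3' end sequencing (QuantSeq forward) in 33 libraries of whole eye-antennal discs, sheets of larval epithelium that give rise to the eye, the antenna and the head around them. Each library held at least 30 discs, collected 5 days after egg laying at 25°C, so cells outside mutant clones and antennal cells were included in every value. The study compared ways of activating Yorkie (Yki). Yki is the growth-promoting co-activator that Hippo signalling restrains through the kinase Warts (Wts), and it reaches DNA through the partner Scalloped (Sd). Nothing in the labels says whether the replicates of a group came from separate cultures, so the p-values cover the variation among these libraries only, which may be technical.

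In the eyFLP model, larvae carried y w ey-FLP and FRT82B cl- over FRT82B (control, 3 libraries) or over FRT82B wts149 (wts-, 2 libraries), with recombination driven by the eyeless enhancer. In the optix model, larvae of the w/y v background carried optix-Gal4, which drives expression in part of the eye disc, with UAS-lucRNAi (control, 3 libraries) or UAS-yki3SA (2 libraries), a Yki with altered inhibitory phosphorylation sites. In the MARCM model, clones were made with ey-FLP and marked with GFP by loss of the repressor tub-Gal80. In sequencing run 1 the MARCM larvae carried FRT19A and Act5C<y+<Gal4, with nothing else (control, 5 libraries), UAS-yki3SA (5), sd47M (sd-, 3), or UAS-yki3SA and sd47M (yki3SA sd-, 3). In run 2 the sd- (2 libraries) and yki3SA sd- (2) genotypes were the same, but control (2) and yki3SA (1) used FRT42D with tub-Gal4. Run 2 therefore changes chromosome arm and driver together with the run for these groups, and the 3 cannot be told apart.

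Libraries held between 4874192 and 19128356 counts. Levels are given as CPM, counts scaled to library size, with one scaling for all 33 libraries. They are compared between groups for the same gene, and never between genes. Transcripts of yki were at 42.5 to 77.8 CPM in run 1 MARCM yki3SA and at 19.0 to 58.2 CPM in its control, so their level does not separate these groups. It stood at 2081 CPM in the only yki3SA library of run 2. In yki3SA sd- discs yki was at 2.72 to 9.87 CPM in run 1, below every run 1 MARCM control, and at 98.0 to 109 CPM in run 2, against 63.3 to 64.2 CPM in run 2 sd-. In the optix model yki was at 11.0 and 51.8 CPM with yki3SA and at 0 to 19.4 CPM in controls, and these ranges overlapped. The yki level therefore does not bear out the yki3SA label in optix discs or in run 1 of either MARCM group. In run 2 it was far lower in yki3SA sd- than in yki3SA discs. A 3' tag need not see a transgene, and whether the groups labelled yki3SA and yki3SA sd- express it equally was not tested. Groups are named by their labels throughout. Transcripts of wts were at 233 to 266 CPM in wts- discs and at 166 to 176 CPM in their controls. They were at 429 ± 55.3 CPM (SD, n = 5) in run 1 MARCM yki3SA discs and at 204 ± 19.7 CPM (n = 5) in their controls, where wts is not mutated, so the wts level does not check the wts- label. Transcripts of sd were at 274 to 385 CPM in run 1 sd- and at 379 to 457 CPM in run 1 control.

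Of the 33 libraries, 9 stood apart from the other libraries of their own group and run: all 5 optix libraries, MARCM sd- replicate 3 and the 3 run 1 yki3SA sd- libraries. Their highest correlation with a library of the same group and run, across 6732 genes, was 0.9269 to 0.9789. It was 0.9898 or more for the other libraries that had such a mate. The only run 2 yki3SA library had no mate and could not be checked in this way. Several of the genes described moved with this. In MARCM sd- replicate 3, ato was at 21.6 CPM against 63.8 and 65.6 CPM in its mates, while da was at 525 CPM against 366 and 365 CPM. In optix control replicate 2, ato was at 20.6 CPM against 46.0 and 40.7 CPM, and da was at 532 CPM against 432 and 411 CPM. Both libraries were the least deep of their group, with 7383459 and 6927152 counts, and yki was at 1.37 and 0 CPM in them. The cause was not tested, and some of the MARCM results are also given without the 4 MARCM libraries concerned. Without them the yki3SA sd- group holds its 2 run 2 libraries alone.

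All 8 genes carry a unique identifier in the dm6 genome. The single-exon gene ato (FBgn0010433) lies on 3R from 8278052 to 8279274 on the plus strand, and the single-exon gene nerfin-1 (FBgn0028999) on 3L from 909112 to 912319 on the plus strand. On 3L also lie sens (FBgn0002573, 13396228 to 13401125, minus strand), scrt (FBgn0004880, 3983896 to 3994003, plus strand) and emc (FBgn0000575, 749400 to 753492, plus strand). On 3R lies boss (FBgn0000206, 25961994 to 25966948, plus strand), on 2L da (FBgn0267821, 10388105 to 10393228, plus strand) and on 2R sca (FBgn0003326, 12780541 to 12802010, plus strand). Genes on the opposite strand overlap da, emc and sca, and whether the counting used strand is unknown, so their counts may include reads of those neighbours.

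With Yki activated, 6 of the 8 genes fell in each of the 3 models while da and emc passed the test in none (edgeR quasi-likelihood test, Benjamini-Hochberg adjusted p under 0.05). The 6 were ato, sca, sens, boss, nerfin-1 and scrt. In wts- discs 24% of the 8693 genes tested were called and 13.5% were called lower. In optix yki3SA discs 19.5% were called and 10.5% were called lower. In MARCM yki3SA discs, over both runs, 34.4% of the 8927 genes tested were called and 17.1% were called lower. Run 1 of the MARCM model, fitted together with the other models, also gave 6 falls, where 41.1% were called and 21.2% were called lower. The median log2 fold change of the 8 was -4.11 in wts- discs with boss at its bound (-4.61 as fitted), -2.03 in optix and -2.85 in MARCM discs, against -0.01, 0.03 and 0.08 over all genes tested. The plot of fold changes by model shows these 6 genes below 0 in every model and da and emc beside the zero line. In whole discs, a smaller share of cells that express these genes and less RNA per such cell cannot be told apart.

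**Figure D1:**
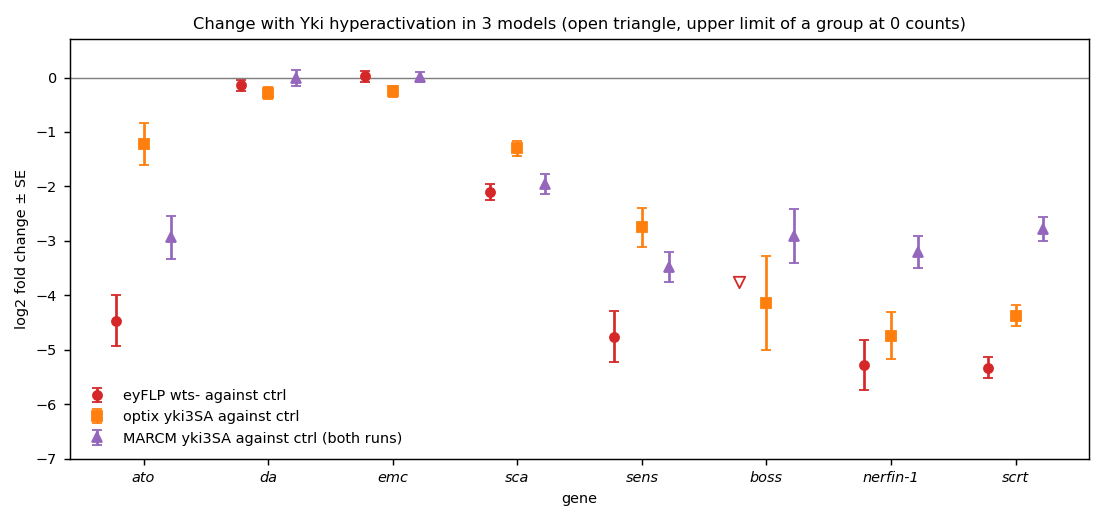
Log2 fold change with Yki activation (vertical axis, symbols with SE bars) of each gene in the eyFLP, optix and MARCM models, with an open triangle at the bound for boss in wts- discs. Points for da and emc sit near 0 in all 3 models, and those of the other 6 genes lie below -1.

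Atonal transcripts fell in all models, with the fitted fall largest in wts- and smallest in optix discs, and run 2 of the MARCM model alone gave a larger value than wts- discs (-5.28). The level of ato was 69.4, 66.7 and 67.7 CPM in the eyFLP controls and 4.28 and 1.84 CPM in wts- discs. It was 46.0, 20.6 and 40.7 CPM in the optix controls and 11.3 and 19.5 CPM with yki3SA. In run 1 MARCM discs it was 54.3, 44.3, 46.6, 60.3 and 61.9 CPM in the controls and 3.04, 8.25, 8.36, 11.0 and 8.60 CPM with yki3SA. In each model every library with active Yki was below every control, but in the optix model the highest yki3SA library was close to the lowest control. In run 2 the controls had ato at 45.5 and 50.1 CPM, and the yki3SA library had it at 1.32 CPM.

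The log2 fold change of ato was -4.47 ± 0.47 (SE) in wts- discs (adjusted p = 6.67e-07, edgeR quasi-likelihood test), with 2 of 2 wts- libraries below all controls. It was -2.93 ± 0.40 in MARCM yki3SA discs (adjusted p = 3.09e-06). In optix discs it was -1.22 ± 0.38 (adjusted p = 0.0318), and this call was lost in 7 of 12 alternative settings, over which the adjusted p ranged from 0.00517 to 0.18. The settings that ended it were no filter (adjusted p = 0.0675), the replicate number as a block (0.179), the fit of the 2 optix groups alone (0.115) and the removal of yki3SA replicate 1 (0.18), yki3SA replicate 2 (0.0607), control replicate 1 (0.0906) or control replicate 3 (0.0643). Ordered by mean level in run 1, eyFLP control came first, followed by MARCM control, MARCM sd-, optix control, yki3SA sd-, optix yki3SA, MARCM yki3SA and wts-. The plot of levels by library shows this order. Neighbours in it did not overlap at 2 places, between eyFLP and MARCM control and between optix yki3SA and MARCM yki3SA.

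**Figure D2:**
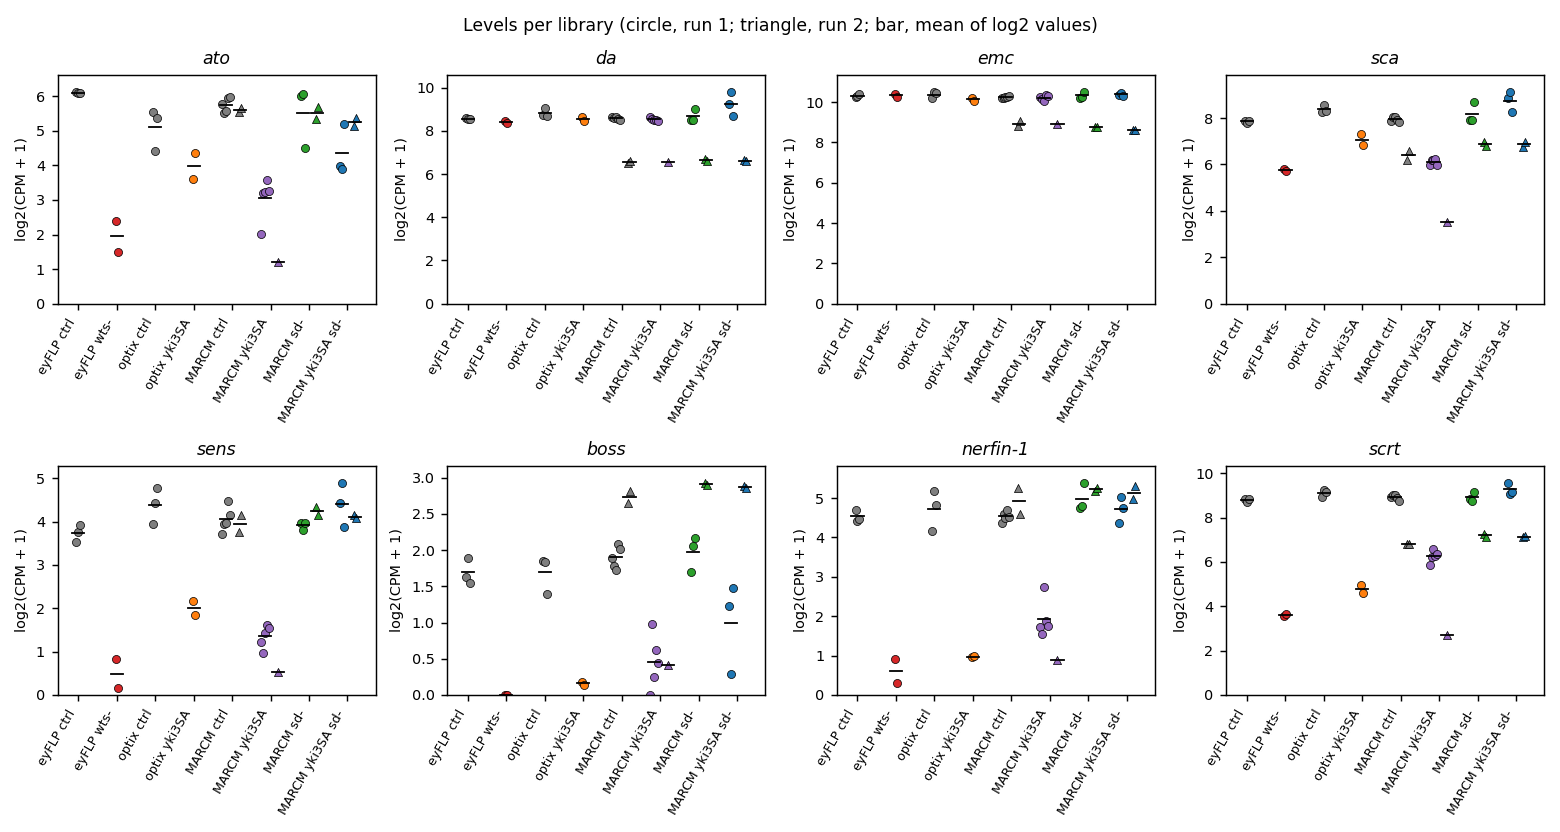
Level of each gene in every library as log2(CPM + 1), by group, with circles for run 1, triangles for run 2 and a bar at the mean of the log2 values. The levels of ato, sca, sens, boss, nerfin-1 and scrt are low in wts-, optix yki3SA and MARCM yki3SA discs, while run 1 and run 2 separate da and emc.

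Daughterless (Da) is the general bHLH partner with which Ato binds DNA, and Extramacrochaetae (Emc) is the HLH protein without a basic region that ties up such partners and inhibits proneural activity. Neither was called with active Yki in the main fits, while some alternative settings called them in optix discs. The level of da was 384, 379 and 372 CPM in the eyFLP controls and 356 and 329 CPM in wts- discs. It was 432, 532 and 411 CPM in the optix controls and 403 and 352 CPM with yki3SA. Run 1 MARCM controls ranged from 362 to 402 CPM and yki3SA from 353 to 399 CPM, and these ranges overlapped almost entirely.

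The log2 fold change of da was -0.15 in wts- discs (95% interval -0.36 to 0.07, adjusted p = 0.394). It was -0.28 in optix discs (-0.49 to -0.07, adjusted p = 0.0777) and -0.00 in MARCM discs (-0.29 to 0.28, adjusted p = 0.993). For emc the same values were 0.02 (-0.18 to 0.22, adjusted p = 0.926), -0.25 (-0.45 to -0.05, adjusted p = 0.0904) and 0.01 (-0.17 to 0.18, adjusted p = 0.965). In optix discs a fall of da was called with DESeq2 (adjusted p = 0.0461), without yki3SA replicate 1 (0.0364) and without control replicate 3 (0.0361), and a fall of emc without control replicate 1 (0.0215). All of these intervals lie within 0.49 log2 units of 0. Both genes were far lower in every run 2 library than in every run 1 library. The range of da was 89.2 to 103 CPM in run 2 and 329 to 909 CPM in run 1, and that of emc 387 to 531 CPM in run 2 and 1051 to 1471 CPM in run 1.

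Scabrous (Sca) is a secreted fibrinogen-domain protein made by the founder cells that takes part in spacing them. Of the 6 genes that fell, it kept the largest share of its control level in wts- discs. Its level was 235, 220 and 236 CPM in the eyFLP controls and 55.4 and 51.7 CPM in wts- discs. It was 308, 374 and 315 CPM in the optix controls and 158 and 113 CPM with yki3SA. Run 1 MARCM controls held 229 to 262 CPM and yki3SA libraries 61.0 to 74.0 CPM, and no library of one group reached the range of the other.

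For sca the log2 fold change was -2.11 ± 0.15 in wts- discs (adjusted p = 2.03e-10), -1.30 ± 0.14 in optix discs (adjusted p = 3.84e-07) and -1.96 ± 0.19 in MARCM discs (adjusted p = 2.61e-08). In run 1, optix yki3SA, MARCM yki3SA and wts- discs followed each other downward without overlap.

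Senseless (Sens) is the zinc finger protein that Ato switches on in R8 and that maintains R8 identity. The level of sens was 10.5, 12.6 and 14.2 CPM in the eyFLP controls. In wts- discs it was 0.768 and 0.115 CPM, which rested on 7 counts and 1 count. In the optix model it was 14.4, 20.6 and 26.2 CPM in the controls and 3.49 and 2.58 CPM with yki3SA. Run 1 MARCM controls had 12.2, 14.4, 14.7, 21.2 and 16.6 CPM and yki3SA libraries 1.34, 0.971, 1.71, 2.07 and 1.91 CPM. No ranges of control and active Yki overlapped.

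For sens the log2 fold change was -4.76 ± 0.47 in wts- discs (adjusted p = 5.73e-08), -2.75 ± 0.36 in optix discs (adjusted p = 6.05e-06) and -3.48 ± 0.28 in MARCM discs (adjusted p = 1.37e-09). These fitted falls were larger in each model than those of ato and sca, a difference between genes that was not tested.

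Bride of sevenless (Boss) is the ligand on the R8 surface that binds the Sevenless receptor of the R7 precursor, and it marks R8 cells that have already differentiated. It was the most thinly counted of the 8 genes. The eyFLP controls held 16, 24 and 16 counts (2.10, 2.71 and 1.93 CPM), and both wts- libraries held 0. With a floor of 3 counts over the group, boss was at least 13.4-fold lower in wts- discs (adjusted p = 0.000118). The optix controls held 27, 16 and 15 counts and each yki3SA library 1 count, a log2 fold change of -4.15 ± 0.86 (adjusted p = 0.0015). In run 1 MARCM discs the controls held 18 to 44 counts and the yki3SA libraries 0 to 8, and over both runs boss fell by 2.91 ± 0.49 log2 units (adjusted p = 5.83e-05).

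Nerfin-1 and Scratch (Scrt) are zinc finger proteins of early neurons, the former known for axon guidance and for keeping neurons differentiated, the latter for promoting neuronal fate. Both fell deeply in all models. The level of nerfin-1 was 25.0, 20.5 and 21.2 CPM in the eyFLP controls and 0.878 and 0.229 CPM in wts- discs. It was 17.0, 35.0 and 27.6 CPM in the optix controls and 0.940 and 0.993 CPM with yki3SA. In run 1 MARCM discs it was 19.7 to 24.8 CPM in the controls and 2.33, 1.94, 5.70, 2.68 and 2.39 CPM with yki3SA. Control and active Yki libraries were separated in every model.

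The log2 fold change of nerfin-1 was -5.28 ± 0.47 in wts- discs (adjusted p = 1.01e-08), -4.75 ± 0.43 in optix discs (adjusted p = 3.45e-08) and -3.21 ± 0.30 in MARCM discs (adjusted p = 1.26e-08). The level of scrt was 460, 420 and 457 CPM in the eyFLP controls and 10.6 and 11.6 CPM in wts- discs. It was 484, 604 and 560 CPM in the optix controls and 29.8 and 23.3 CPM with yki3SA. In run 1 MARCM discs it was 428 to 518 CPM in the controls and 57.8 to 93.7 CPM with yki3SA, again without overlap.

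For scrt the log2 fold change was -5.33 ± 0.20 in wts- discs (adjusted p = 2.37e-14), -4.37 ± 0.19 in optix discs (adjusted p = 6.3e-13) and -2.78 ± 0.21 in MARCM discs (adjusted p = 6.85e-10). Its levels in run 1 formed 3 steps without overlap below all other groups: MARCM yki3SA, then optix yki3SA, then wts-. The order of the same 3 groups was different for ato, sca and sens, where optix yki3SA kept more than MARCM yki3SA.

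That difference in order was tested as a difference of effects, among the 20 libraries of run 1 that were fitted together. Between optix and MARCM run 1, 15.8% of genes differed, 7.75% with a higher and 8.02% with a lower value in optix. Among the 8 genes, ato and sca fell less in optix than in MARCM discs, by 1.54 ± 0.46 (adjusted p = 0.0295) and 0.53 ± 0.16 log2 units (adjusted p = 0.0295). By contrast, nerfin-1 and scrt fell more in optix, with differences of -1.81 ± 0.50 (adjusted p = 0.018) and -1.73 ± 0.19 (adjusted p = 1.79e-06). The remaining 4 did not pass, and sens differed by 0.52 with an interval from -0.32 to 1.35. The ato difference was lost in 4 of 21 alternatives, among them the replicate block (adjusted p = 0.0739), without optix yki3SA replicate 2 (0.305) and without optix control replicate 2 (0.0575). The sca difference was lost in 3 of 21: the replicate block (0.0706), without optix yki3SA replicate 1 (0.284) and without optix control replicate 1 (0.0702), and that of nerfin-1 in 2 of 21, among them without optix yki3SA replicate 2 (0.109).

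**Figure D3:**
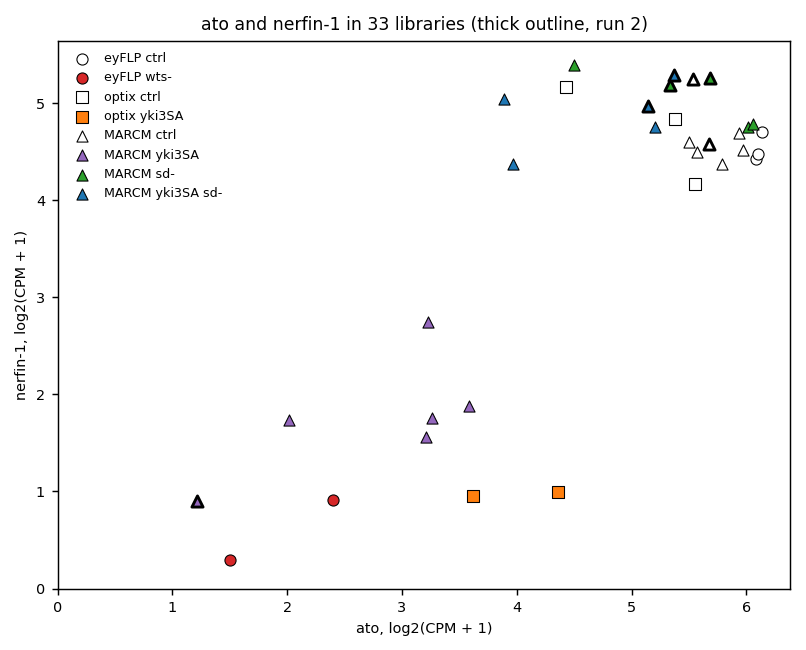
Level of ato (horizontal axis) against nerfin-1 (vertical axis), both as log2(CPM + 1), in all 33 libraries, with open symbols for controls and thick outlines for run 2. Both optix yki3SA libraries, at 11.3 and 19.5 CPM of ato, lie to the right of every MARCM yki3SA and wts- library and below every run 1 MARCM yki3SA library.

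Plotted against each other, ato and nerfin-1 were not low in the same libraries throughout. The optix yki3SA libraries kept 11.3 and 19.5 CPM of ato at 0.940 and 0.993 CPM of nerfin-1. The run 1 yki3SA sd- libraries, MARCM sd- replicate 3 and optix control replicate 2, which all stood apart, held 13.8 to 35.9 CPM of ato with 19.8 to 40.9 CPM of nerfin-1.

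Between wts- and optix discs, 8.19% of genes differed and 4.83% were lower in wts-. Among the 8 genes, ato fell more in wts- discs, with a difference of -3.24 ± 0.59 log2 units (adjusted p = 0.00142). The differences for sca, scrt and sens were -0.81 ± 0.19 (adjusted p = 0.00853), -0.96 ± 0.23 (adjusted p = 0.0113) and -2.01 ± 0.61 (adjusted p = 0.0469). The sens difference was lost in 11 of 16 alternatives, over which its adjusted p ranged from 0.0148 to 0.343, with the highest value without wts- replicate 2. The sca difference was lost without wts- replicate 2 (adjusted p = 0.0514) or optix yki3SA replicate 1 (0.0625). The scrt difference was lost without wts- replicate 1 (0.0696) or optix yki3SA replicate 1 (0.0561), and with limma-voom (0.058). For nerfin-1 the difference was -0.53 with an interval from -1.91 to 0.84 (adjusted p = 0.697), so a difference in its fall was not detectable with these libraries.

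Between wts- and MARCM run 1 discs, 8.51% of genes differed and 4.92% were lower in wts-. The 2 neuronal zinc finger genes were called among the 8: nerfin-1 with a difference of -2.34 ± 0.55 (adjusted p = 0.00859) and scrt with -2.68 ± 0.21 (adjusted p = 1.83e-08). For ato the difference was -1.70 ± 0.53 (adjusted p = 0.0566) and for sens -1.49 ± 0.57 (adjusted p = 0.129). The nerfin-1 difference was lost without wts- replicate 2 (adjusted p = 0.129) and with limma-voom (0.0868). Differences of ato and boss were called without MARCM yki3SA replicate 1 (0.00609 and 0.0158), that of ato also with DESeq2 (0.00608), and that of sens without wts- replicate 1 (0.0374). The models differ in how many cells carry the change, in driver and in the gene manipulated, and these cannot be told apart.

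The dependence on Scalloped was addressed in the MARCM model. With loss of sd alone 0 of the 8 genes were called, at a background of 0.101% of genes called (edgeR quasi-likelihood test). A share of genes that small leaves few calls for any list. At an unadjusted p under 0.05 there was 1 gene, sca (0.39, interval 0.03 to 0.76), and DESeq2 and limma-voom called 0. The median log2 fold change of the 8 was 0.12, against -0.00 over all genes, and the adjusted p was 1 for each of the 8. In run 2 alone, scrt rose by 0.39 log2 units with loss of sd (adjusted p = 0.00953), from 112 and 111 CPM to 153 and 139 CPM, where control and sd- differ in chromosome arm and driver.

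With sd mutated, 0 of the 8 genes were called with yki3SA, at a background of 0.134%. Here 1 gene, da, had an unadjusted p under 0.05 and was called in run 1 alone (0.64, adjusted p = 0.0492), and DESeq2 and limma-voom called 0. The level of ato was 63.8, 65.6 and 21.6 CPM in run 1 sd- and 14.7, 13.8 and 35.9 CPM in yki3SA sd- discs. In run 2 it was 39.3 and 50.4 CPM in sd- and 34.3 and 40.3 CPM in yki3SA sd- discs. Its ranges overlapped in both runs, and the log2 fold change was -0.74 ± 0.40 (interval -1.53 to 0.04, adjusted p = 0.242). It was -1.22 ± 0.44 in run 1 alone (adjusted p = 0.059), -0.24 ± 0.15 in run 2 alone (adjusted p = 0.472) and -0.21 ± 0.39 without the 4 libraries that stood apart (adjusted p = 0.937).

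The ranges of sens, nerfin-1 and scrt in yki3SA sd- and sd- discs overlapped in run 2. In run 2 yki3SA sd- libraries sens was at 16.8 and 15.8 CPM, nerfin-1 at 30.5 and 38.3 CPM and scrt at 140 and 142 CPM. In the run 2 sd- libraries they were at 19.0 and 16.7 CPM, 35.6 and 37.3 CPM, and 153 and 139 CPM. The log2 fold change of yki3SA in sd mutant discs was 0.26 for sens (interval -0.25 to 0.77) and -0.18 for nerfin-1 (-0.73 to 0.37). It was 0.19 for scrt (-0.24 to 0.62) and 0.33 for sca (-0.07 to 0.73). In run 1 alone it was 0.57 for sens, -0.26 for nerfin-1, 0.37 for scrt and 0.58 for sca, and none was called. For boss, over both runs, it was -0.60 (-1.47 to 0.27). The run 1 yki3SA sd- libraries held 11, 1 and 15 counts of boss and the sd- libraries 20, 34 and 23. In run 2 boss was at 6.36 and 6.22 CPM in yki3SA sd- discs and at 6.62 and 6.49 CPM in sd- discs.

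**Figure D4:**
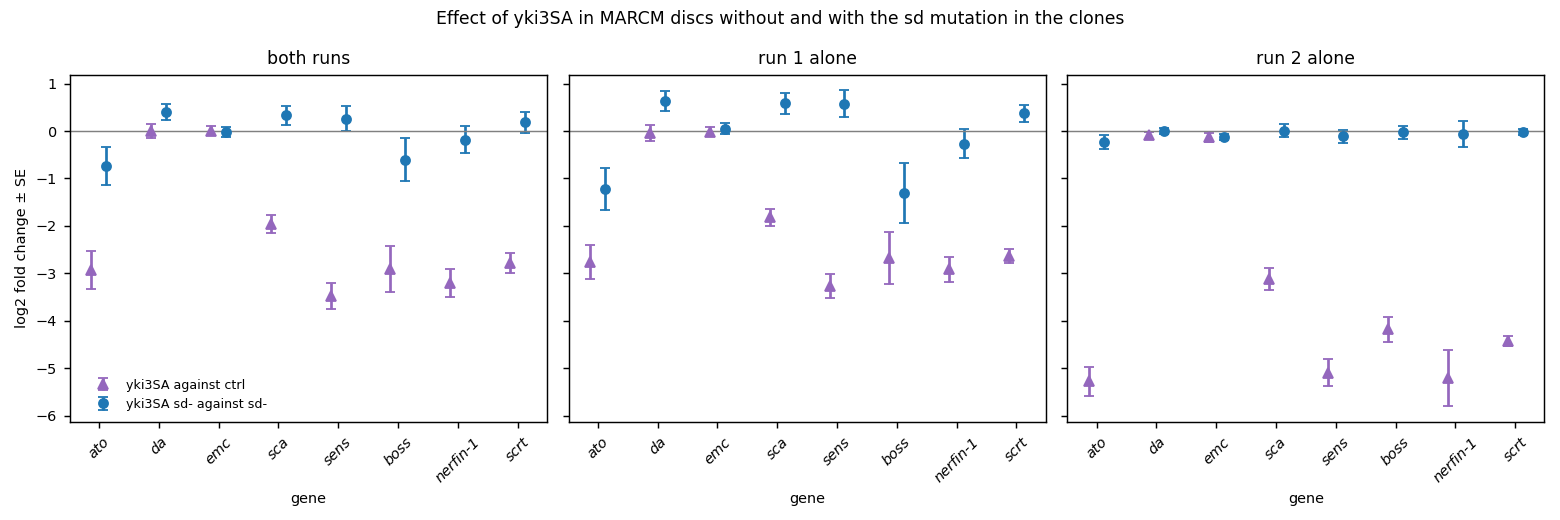
Log2 fold change (vertical axis, with SE bars) made by yki3SA in MARCM discs without the sd mutation (triangles) and with it (circles), for both runs, run 1 alone and run 2 alone, where run 2 holds 1 yki3SA library and the sd mutation goes with chromosome arm and driver. Without the mutation ato, sca, sens, boss, nerfin-1 and scrt lie between -1.82 and -5.28, and with it all 8 genes lie between -1.30 and 0.64.

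Compared directly with yki3SA discs, yki3SA sd- discs had higher levels of 7 of the 8 genes, where 53% of all genes were called and 24.9% were called higher. In run 2 these groups also differ in chromosome arm and driver, which cannot be told apart from sd there. In run 1 all yki3SA sd- libraries stood apart. The median log2 fold change of the 8 was 2.55, against -0.08 over all genes. The log2 fold changes were 3.79 ± 0.29 for sens (adjusted p = 8.55e-10), 3.45 ± 0.32 for nerfin-1 (adjusted p = 9.93e-09) and 3.15 ± 0.23 for scrt (adjusted p = 3.46e-10). They were 2.68 ± 0.21 for sca (adjusted p = 7.78e-10), 2.42 ± 0.54 for boss (adjusted p = 0.000902) and 2.09 ± 0.43 for ato (adjusted p = 0.000396). For boss the call was lost in run 1 alone (1.46, adjusted p = 0.0665).

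The remaining riser, da, rose by 0.52 ± 0.16 log2 units (adjusted p = 0.00963), and this call was lost in 3 of 20 alternatives. Its level was 617, 909 and 416 CPM in run 1 yki3SA sd- discs against 353 to 399 CPM in run 1 yki3SA discs. In run 2 it was 100 and 95.8 CPM against 94.0 CPM. In run 1 alone the log2 fold change was 0.77 (adjusted p = 0.00286), where all 3 yki3SA sd- libraries stood apart. Without the 4 libraries, with that group in run 2 only, it was 0.06 (adjusted p = 0.637), in run 2 alone 0.19 (adjusted p = 0.0512), and with the replicate number as a block 0.46 (adjusted p = 0.0534). For emc a fall by 0.26 log2 units was called without the 4 libraries (adjusted p = 0.0361) and not with them (-0.04, adjusted p = 0.767).

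The interaction compares the effect of yki3SA between the groups with and without the sd mutation. In run 1 these groups differ in sd, and in run 2 they also differ in chromosome arm and driver, so there it cannot be told apart from a difference of driver. In run 1, however, all yki3SA sd- libraries and sd- replicate 3 stood apart. There yki was at 2.72 to 9.87 CPM in yki3SA sd- and at 42.5 to 77.8 CPM in yki3SA discs. What this adds to the run 1 values was not tested. The interaction was called for 6 of the 8 genes, all positive, at a background of 27.9% called and 15% called positive. It was 3.74 ± 0.38 for sens (adjusted p = 1.83e-07), 3.03 ± 0.41 for nerfin-1 (adjusted p = 6.49e-06), 2.97 ± 0.30 for scrt (adjusted p = 1.94e-07) and 2.29 ± 0.28 for sca (adjusted p = 1.52e-06). For boss it was 2.31 ± 0.67 (adjusted p = 0.0133) and for ato 2.19 ± 0.56 (adjusted p = 0.00531). In run 1 alone it was 1.54 ± 0.56 for ato (adjusted p = 0.0543) and 1.38 ± 0.84 for boss (adjusted p = 0.221), which end these calls. For the other 4 it was called in run 1 alone, with 3.85 for sens (adjusted p = 1.97e-06), 2.65 for nerfin-1 (adjusted p = 0.000129) and 2.40 for sca (adjusted p = 9.26e-06), and an adjusted p of 1.8e-07 for scrt. In run 2 alone it was 5.04 for ato and 4.15 for boss. Without the 4 libraries that stood apart, where yki3SA sd- is held by run 2 only, it was 2.95 for ato (adjusted p = 0.000153) and 3.18 for boss (adjusted p = 0.00022). For sens, nerfin-1, scrt and sca it was 3.67, 3.42, 3.10 and 2.25 there. Both comparisons of yki3SA sd- discs with sd- and with yki3SA discs use the same yki3SA sd- libraries.

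The yki3SA effect had larger fitted values in run 2 than in run 1, and control and yki3SA genotypes differ between the runs. In run 1 alone the log2 fold change was -2.76 for ato, -3.27 for sens, -2.91 for nerfin-1 and -2.64 for scrt. In run 2 alone, with 1 yki3SA library, it was -5.28, -5.10, -5.21 and -4.42. The difference was not tested. The fall of the 6 genes was called in run 1 alone. It was also called in run 2 alone, where the single yki3SA library is assumed to vary like the other groups. The plot of yki3SA effects with and without sd shows both runs beside the values in sd mutant discs.

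The genes that feed into ato in the furrow were followed by a list of 16, among them the retinal determination genes ey, toy, so, eya and dac, hedgehog and dpp signalling genes, the Notch genes N and Dl, and ro, which restricts ato. Over all genes tested, 13.5% were called lower in wts-, 10.5% in optix and 17.1% in MARCM yki3SA discs, with medians of -0.01, 0.03 and 0.08, and these stand behind each list count that follows. In wts- discs 10 fell and 3 rose, with a median of -0.83, and in MARCM yki3SA discs 11 fell and 3 rose, with a median of -1.11. In optix discs 7 fell and 0 rose, with a median of -0.33. The log2 fold change of dac, a nuclear factor of the retinal network, was -4.32 in wts-, -2.73 in optix and -2.68 in MARCM discs. That of eya, which acts with it, was -4.28 in wts- discs, and that of ro was -2.99 in optix and -2.29 in MARCM discs.

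Between optix and MARCM run 1 discs the effect was called higher in optix for 4 of these 16 genes and lower for 3. Of all genes 7.75% were called higher and 8.02% lower. Among the 16, toy and hh had the largest called differences at 10 CPM or more. The eyeless-class gene toy had a log2 fold change of -1.28 in wts- discs (adjusted p = 4.44e-06) and of 0.29 in optix discs (adjusted p = 0.233). The difference between them was -1.57 (adjusted p = 0.000109), and that between optix and MARCM run 1 was 1.81 (adjusted p = 1.29e-06). The level of toy was 481 ± 39.4 CPM (SD, n = 3) in optix controls and 586 ± 34.7 CPM (n = 2) with yki3SA. For hh, which drives furrow movement, the effect was higher in optix than in MARCM discs by 0.88 (adjusted p = 0.00105).

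The E(spl) complex holds direct Notch targets that restrict ato to single cells. Of its 11 genes listed and tested, 10 fell in wts- discs (13.5% of all genes), 11 in MARCM yki3SA discs (17.1%) and 3 in optix discs (10.5%). Their median log2 fold change was -2.99 in wts- discs with E(spl)m6-BFM, at 0 counts there, set at its bound, -2.68 in MARCM and -0.62 in optix discs. The difference of effects between optix and MARCM run 1 was positive and called for 9 (7.75% of all genes) and negative for 1 (8.02%). E(spl)mgamma-HLH fell from 438 ± 70.1 to 12.5 ± 1.82 CPM in the eyFLP model and from 671 ± 168 to 47.3 ± 14.1 CPM in the optix model, while E(spl)m5-HLH differed between these models by -3.61 (adjusted p = 0.000109).

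Genes of later photoreceptor recruitment, which act after R8 is chosen, fell in numbers of 12 of 14 in wts- (13.5% of all genes), 13 in optix (10.5%) and 11 in MARCM discs (17.1%), with medians of -3.64, -2.29 and -2.27. In optix and in MARCM discs 1 rose. The protease gene ru, which frees the EGFR ligand, had log2 fold changes of -6.04, -4.94 and -3.48. The nuclear receptor gene svp, needed in R1, R3, R4 and R6, was the gene that rose in optix discs (0.59, adjusted p = 0.0281). Its level was 44.9 ± 9.77 CPM (n = 3) in optix controls and 68.0 ± 15.4 CPM (n = 2) with yki3SA, and its effect there was higher than in MARCM run 1 by 2.28 log2 units (adjusted p = 5.35e-07).

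Of 9 genes of the sensory precursor lineage, 8 were tested, and 7 fell and 1 rose in wts- discs, 6 fell in optix discs, and 6 fell and 1 rose in MARCM yki3SA discs. Of all genes, 24%, 19.5% and 34.4% were called in these models. Medians were -1.46, -1.20 and -1.33. The RNA-binding protein gene cpo had log2 fold changes of -5.08 in wts- and -2.92 in optix discs and fell in MARCM discs too. The gene that rose in wts- discs was insc, which orients the spindle of neural precursors, from 3.25 ± 0.587 to 28.9 ± 0.832 CPM, a log2 fold change of 3.15 (adjusted p = 6.51e-08). Of 7 other proneural genes only 4 passed the filter on low counts, and 2 fell in wts-, 1 in optix and 2 in MARCM discs, with medians of -2.13 (cato, at 0 counts in wts-, at its bound), -0.05 and -1.57.

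With loss of sd alone and with yki3SA in sd mutant discs, 0 genes of these 5 lists were called, where 0.101% and 0.134% of all genes were called, so these counts say nothing particular of the lists. In yki3SA sd- against yki3SA discs 53% of all genes were called and 24.9% were called higher. There 11 of 11 E(spl) genes and 12 of 14 recruitment genes rose. Of the 16 furrow genes 11 rose and 3 fell, of the 8 sensory lineage genes 6 rose and 1 fell, and of the 4 other proneural genes 2 rose.

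Markers of other cell types moved with these groups to different degrees. The summed level of 6 markers of neurons and photoreceptors was 1022 to 1170 CPM in eyFLP controls and 131 to 153 CPM in wts- discs. It was 1205 to 1387 and 208 to 234 CPM in the optix model, and 1048 to 1105 and 227 to 248 CPM in run 1 MARCM control and yki3SA discs. In run 1 yki3SA sd- discs it was 1240 to 1503 CPM. None of the 6 was at 0 in any group.

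The 8 genes listed as antennal markers summed to 4528 to 5741 CPM in eyFLP controls and 4290 to 4446 CPM in wts- discs. They summed to 4760 to 5523 and 6087 to 6213 CPM in the optix model. In run 1 MARCM control and yki3SA discs the sum was 4889 to 5659 and 3260 to 4046 CPM. Most of this sum was hth (4249 ± 666 CPM in eyFLP controls and 4005 ± 158 CPM in wts- discs), and other members moved more. From eyFLP control to wts- discs, mean levels went from 66.4 to 1.84 CPM for dan, from 70.8 to 4.34 CPM for danr, from 78.0 to 23.7 CPM for ss, from 36.8 to 11.3 CPM for al and from 158 to 64.8 CPM for Dll. From run 1 MARCM control to yki3SA discs they went from 127 to 20.8 CPM for Lim1, from 191 to 44.1 CPM for ct and from 76.7 to 15.1 CPM for ss. In optix discs dan went from 29.8 to 3.89 CPM and danr from 49.8 to 14.1 CPM, while Dll was at 137 CPM in both groups. Whether each listed gene is made by antennal cells alone was not tested.

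Markers of central nervous system neuroblasts, a tissue in which nerfin-1 and scrt are also used, summed to 11.6 to 49.6 CPM over all libraries. Counts of wor were 0 in optix yki3SA discs and in run 1 MARCM control, yki3SA and yki3SA sd- discs. Single markers moved within that range of sums. Mean mira went from 8.93 to 0.504 CPM in the eyFLP, from 9.18 to 2.99 CPM in the optix and from 8.86 to 1.22 CPM in the run 1 MARCM model, and ase went from 1.99 to 0.115 CPM in the eyFLP model. The marker insc, also in the sensory list, went the other way in wts- discs.

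The 6 hemocyte markers summed to 34.0 to 48.4 CPM in run 1 MARCM controls and 4.73 to 10.5 CPM with yki3SA, and to 28.4 to 66.6 and 19.2 to 20.5 CPM in the optix model. They reached 91.7 to 206 CPM in run 1 yki3SA sd- discs against 28.0 to 63.4 CPM in run 1 sd- discs. In the eyFLP model their sum was at most 23.4 CPM in controls and 12.4 CPM in wts- discs, and the ranges overlapped. Muscle markers summed to 46.3 to 55.3 CPM in run 1 MARCM controls and 47.7 to 65.8 CPM with yki3SA, and glial markers to 143 to 207 and 108 to 155 CPM. Single glial markers went both ways. Mean moody rose from 20.8 to 38.5 CPM there and from 21.4 to 62.1 CPM in the eyFLP model, while the other glial means fell. In optix discs mean repo rose from 4.12 to 13.4 CPM, wrapper from 1.43 to 5.19 CPM and Mdr65 from 2.39 to 7.28 CPM. Means of moody, loco and Gli were lower there with yki3SA. The part of these cell types in the results was not tested.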

How the data were processed

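The deposited values are counts of 3' end reads per gene, 1 column per library, with no scaling by the authors visible in the whole numbers. The submitters' processing notes list FastQC, cutadapt, STAR 2.6.1d and the dm6 genome. No source used here names the read counter, its strand setting or the annotation. The members and gene lists were chosen with earlier results of these data known.

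From these counts, edgeR 4.0.16 (R 4.3.3) quasi-likelihood tests with robust dispersion, TMM scaling and its filter on low counts by group were run, with p-values adjusted by Benjamini-Hochberg over all genes tested and called under 0.05. One model held 20 libraries (eyFLP, optix and run 1 MARCM control and yki3SA). The other held 23 MARCM libraries with a term for run. A standard error is the log2 fold change divided by the square root of F, so it and the 95% interval are approximate. CPM were computed here on one TMM scaling of the 33 libraries. Totals of 4874192 to 19128356 counts limit genes at a few counts, such as boss. No library pair had identical counts, and the procedure was tested on simulated data.

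Of each list, at most 2 called genes per comparison were named, those with the largest log2 fold change at 10 CPM or more in the higher group. Outside this rule, toy and svp, named for a difference of effects, were also given with their effects in single models. Genes alike to a member were the 3 with the highest Pearson r. Alternatives were DESeq2 1.42.0, limma-voom (limma 3.58.1), DESeq2-type size factors, no filter, an adjusted p under 0.01, the replicate number as a block, each run alone, groups fitted alone and each library left out. Leaving out the 4 MARCM libraries that stood apart was chosen after seeing the data. Same-numbered run 1 MARCM control and yki3SA libraries deviated together (r = 0.399, 0.27, 0.43, 0.395 and 0.674). Libraries of different number were not compared, so whether the numbers pair the samples was not tested. Coordinates are from the dm6 annotation. A further table of 15 columns was not used.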

Additional observations from a re-analysis of the deposited data

Results flagged for a closer look

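Within a group, with both runs pooled, a library lay far from the others in 4 of 32 gene and group combinations examined. The usual rate of about 1 in 20 by chance does not apply to pooled runs. Levels of da and emc were lower in every run 2 library than in every run 1 library. Of the 4 combinations, 3 were the only run 2 yki3SA library among 5 of run 1: da at 94.0 CPM, emc at 479.6 CPM and sca at 10.3 CPM. The other was nerfin-1 at 37.1 CPM in MARCM control run 2 replicate 1. Within the control and yki3SA groups, run, chromosome arm and driver cannot be told apart. The sd- genotype was the same in both runs. In sd- discs da was at 365 to 525 CPM in run 1 and 96.8 to 103 CPM in run 2. For emc these ranges were 1182 to 1471 and 430 to 435 CPM, and for sca 239 to 411 and 111 to 123 CPM. For nerfin-1 they were 26.0 to 40.9 and 35.6 to 37.3 CPM. For scrt, which was not flagged, they were 425 to 573 and 139 to 153 CPM. The cause of the differences between runs was not tested.

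The effect of active Yki differed between models by a test of the difference. Between wts- and optix discs it differed for ato (-3.24), sca (-0.81), sens (-2.01) and scrt (-0.96). Between wts- and run 1 MARCM discs it differed for nerfin-1 (-2.34) and scrt (-2.68). Between optix and run 1 MARCM discs it differed for ato (1.54), sca (0.53), nerfin-1 (-1.81) and scrt (-1.73). All are differences of log2 fold changes, the first model minus the second.

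The effect of yki3SA differed between groups without and with the sd mutation, which in run 2 also differ in chromosome arm and driver. All run 1 yki3SA sd- libraries stood apart. The log2 interaction values called were those of ato (2.19), sca (2.29), sens (3.74), boss (2.31), nerfin-1 (3.03) and scrt (2.97).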

How the results depend on the processing

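Over 1576 alternative values of the 8 genes, 0 called values changed sign, 40 calls were lost and 11 were gained. Counts of genes called that moved by over 1.5 times were as follows, and the cause was not tested. In optix discs 554 genes were called with the 2 groups alone, against 1699. In MARCM yki3SA discs 5452 were called in run 2 alone and 4790 without the 4 libraries that stood apart, against 3070. With loss of sd, DESeq2 called 18, limma-voom 14, run 1 alone 18 and run 2 alone 423 genes, against 9, and run 2 alone called 1 of the 8 genes. With yki3SA in sd mutant discs, DESeq2 called 161, run 1 alone 1429, run 2 alone 331 and the fit without the 4 libraries 86 genes, against 12, and run 1 alone called 1 of the 8. The interaction was called for 4970 genes in run 2 alone, against 2494. Of the 8 genes, the difference between wts- and optix was called for 2 at an adjusted p under 0.01 and 2 with limma-voom, against 4. That between wts- and MARCM run 1 was called for 1 with limma-voom, against 2, and that between optix and MARCM run 1 for 1 at an adjusted p under 0.01, against 4.

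With the replicate number as a block, 2 of the 8 genes were called between optix and MARCM run 1, where it ended the calls of ato and sca, 2 genes in all with loss of sd, and 4 genes with yki3SA in sd mutant discs. The block also ended the calls of ato in optix discs, of sens between wts- and optix and of da in yki3SA sd- against yki3SA discs, and changed no other call of the 8 genes. In the other pairs of groups not every r was over 0.1. It was -0.00994 and 0.00279 in eyFLP, -0.16 and -0.582 in optix, and, in run 1, -0.326, -0.318 and -0.591 between sd- and yki3SA sd-, -0.088, -0.434 and 0.531 between control and sd-, and 0.318, 0.142 and -0.295 between yki3SA and yki3SA sd- discs.

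Leaving out 1 library at a time gave 818 (without optix yki3SA replicate 2) to 2199 genes in optix discs. With yki3SA in sd mutant discs it gave 6 (without sd- run 2 replicate 1) to 31 genes (without yki3SA sd- replicate 3). Between wts- and optix it gave 436 (without wts- replicate 2; 453 without wts- replicate 1) to 889 genes and 1 (without optix yki3SA replicate 1) to 4 of the 8. Between wts- and MARCM run 1 it gave 423 (without wts- replicate 1; 475 without wts- replicate 2) to 737 genes and 1 (without wts- replicate 2) to 4 of the 8 (without MARCM yki3SA replicate 1). Between optix and MARCM run 1 it gave 756 to 1977 genes and 2 to 4 of the 8, both lowest without optix yki3SA replicate 2.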

Other observations

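Across all 33 libraries, the genes whose log2(CPM + 1) was most like that of each of the 8 were sought among the 5781 genes that averaged 10 CPM or more. The libraries share runs and models, so the values are descriptions. For ato they were St2 (r = 0.977), E(spl)mdelta-HLH (0.964) and comm2 (0.955). For sens they were CG42492, CG43901 and CG31619, each with r = 0.971. For nerfin-1 they were CG14234 (0.984), CG6024 (0.978) and RhoGAP100F (0.975), and for scrt CG31176 (0.994), X11Lbeta (0.981) and CG13293 (0.98). For boss they were CG9935 (0.963), egr (0.957) and chp (0.947), and for sca CG43867 (0.974), Spn (0.973) and CG32676 (0.97). For da they were sina (0.994), wdb (0.991) and CG11138 (0.991), and for emc CG14464 (0.978), HIP-R (0.978) and Tom7 (0.976). Among the 8 themselves, r was 0.943 for sens and nerfin-1, 0.958 for da and emc, 0.819 for ato and nerfin-1, and -0.0756 for ato and da.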
